A study of Mus musculus with 6 samples.

Results

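Claudins are the membrane proteins that form the strands of tight junctions, and 10 of them, of 18193 genes named on the array, are described here in mouse pancreatic islets. Cldn8 was chosen by its difference in signal between pregnant and non-pregnant islets on these arrays. The 9 others (Cldn1, Cldn2, Cldn3, Cldn4, Cldn5, Cldn7, Cldn10, Cldn12 and Cldn23) were selected as present in islets without pregnancy, though presence was not tested. The 10 were measured by 18 probe sets of 45037 that are not controls, and 14 further numbered claudins on the array were measured by 17 probe sets. The series compared islets of pregnant mice at 12.5 days post coitum (dpc; 3 arrays) with islets of non-pregnant mice at 0 dpc (3 arrays), asking what drives islet growth in pregnancy. All islets were isolated by collagenase digestion, and the labels used here do not state the strain or age of the mice, or how many lie behind each array. The p-values therefore describe the spread between these arrays, which may be technical. Each value is a MAS5 signal, a scaled intensity of 1 probe set on 1 array. Because the choice of the claudins used this contrast, their differences are a description and carry no test, and signals of different probe sets cannot be ranked against each other.

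Each claudin crosses the membrane several times, and its extracellular loops pair with claudins of the neighbouring cell. Some claudins seal the gap between cells and others form pores for ions or water, so the mix of claudins sets what leaks between the cells of an epithelium. Inside the cell most claudins bind scaffold proteins such as ZO-1 through their C-terminal tail. In the pancreas, claudins are known from the ducts and acini as well as from the endocrine islets, and Cldn5 is typical of blood vessels.

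Cldn8, a claudin best known from the collecting duct of the kidney, was far higher in pregnant islets. Its only probe set read 9303, 9409 and 8423 in pregnant islets, against 112, 148 and 141 in non-pregnant islets. The means were 9045 ± 541 in pregnant and 134 ± 19.2 in non-pregnant islets (SD, n = 3 each), a ratio of 67.7. The groups lay far apart, and even the lowest pregnant array was 57.0 times the highest non-pregnant array. The relative spread between arrays was 5.98% in pregnant and 14.4% in non-pregnant islets. On the scale of log2(signal + 16), on which all log2 differences here are given, Cldn8 was 5.93 ± 0.10 higher in pregnancy (SE). Of 27022 probe sets bright enough to be tested, 1 had a larger positive difference. The non-pregnant signals were low but lay above those of the TrpnX control probe sets for a bacterial transcript, which ran from 1.1 to 32.3 over the 6 arrays.

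No other claudin came near that difference. The second largest among the brightest probe sets of the 10 genes was that of Cldn23, an epithelial claudin, which was 1.08 ± 0.17 higher in pregnant islets, 4.84 less than Cldn8 on the log2 scale. Cldn23 read 699, 572 and 414 in pregnant islets, against 244, 270.0 and 239.6 in non-pregnant islets. All 3 pregnant arrays were higher, with a mean of 562 ± 143 against 251 ± 16.4 (SD, n = 3 each), a ratio of 2.24. Its spread was also wider in pregnancy, at 25.4% of the mean against 6.53%. Of the tested probe sets, 0.714% had a larger positive difference than that of Cldn23.

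**Figure D1:**
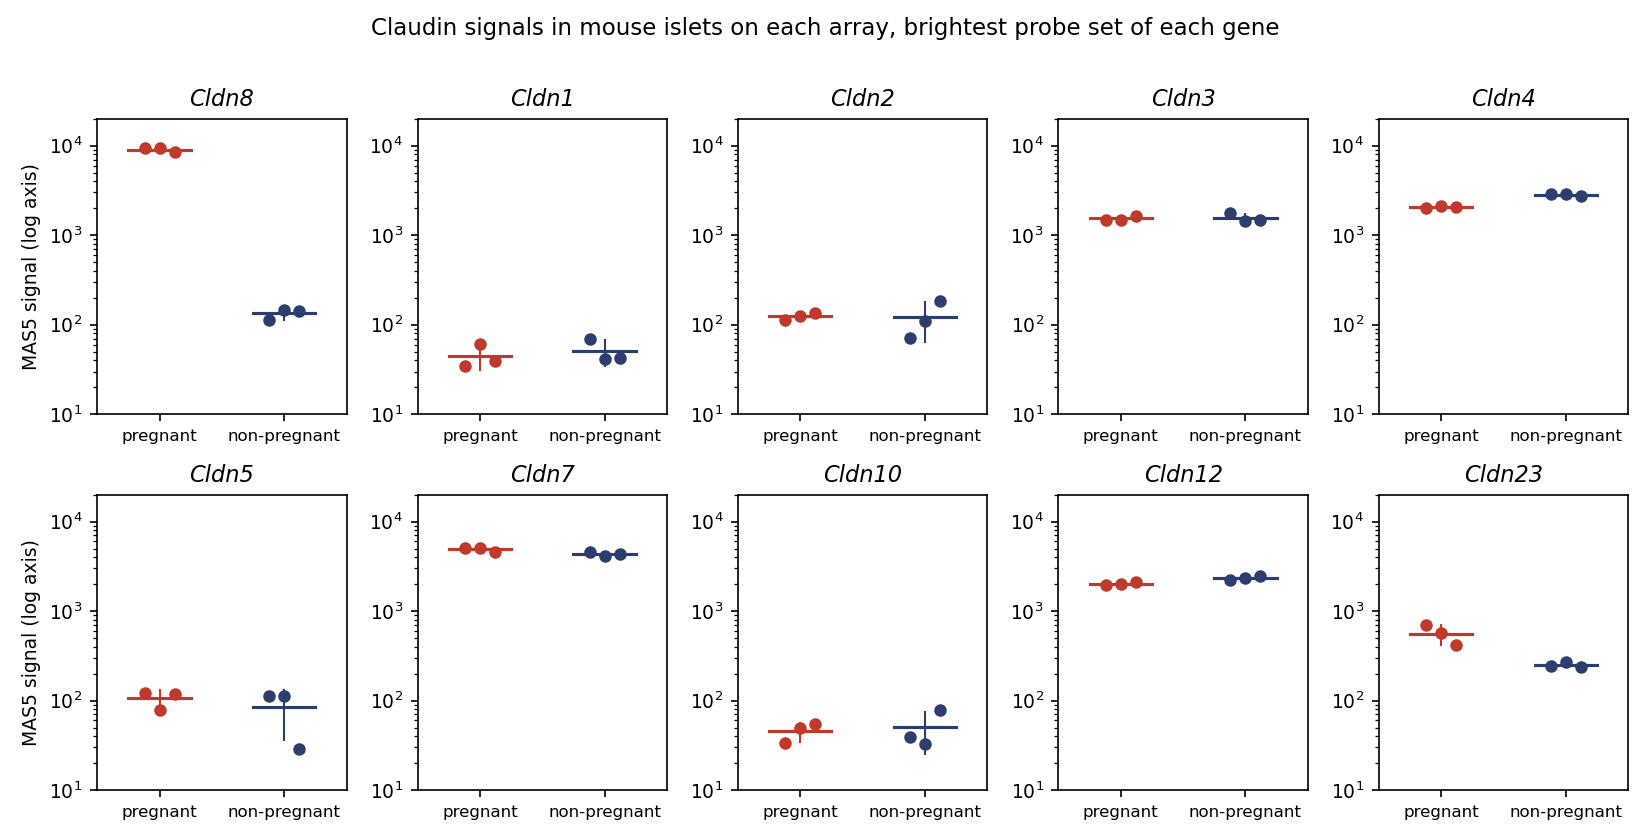
MAS5 signal (log axis) of the brightest probe set of each claudin on the 3 pregnant (red) and 3 non-pregnant (blue) arrays; points are arrays, horizontal bars means and vertical bars SD. Cldn8 lies between 8423 and 9409 in pregnant islets and between 112 and 148 in non-pregnant islets, while Cldn23 is the only other panel in which the means differ by more than 2-fold.

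Bright signals for Cldn7, Cldn4, Cldn12 and Cldn3 were found in both groups, with differences that were small beside that of Cldn8. Cldn7, which also lies along the lateral membrane of epithelial cells and binds Epcam, read 5078, 5045 and 4528 in pregnant islets, against 4518, 4139 and 4295 in non-pregnant islets. The groups only just separated, since the lowest pregnant array was 1.00 times the highest non-pregnant array. The difference was 0.18 ± 0.07.

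Cldn4, a claudin that partners with Cldn8 in the mouse collecting duct, had the largest difference in the other direction among the brightest probe sets of the 10 genes. It read 2017, 2102 and 2075 in pregnant islets, against 2871, 2891 and 2706 in non-pregnant islets. All pregnant arrays were lower, the means being 2065 ± 43.3 and 2822 ± 102 (SD, n = 3 each), with a difference of -0.45 ± 0.07. Cldn4 and Cldn8 thus lay on opposite sides of 0 in the same islets.

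Cldn12, a claudin without the usual scaffold-binding tail, was slightly lower in its brighter probe set, at 1959, 2028 and 2093.5 in pregnant islets, against 2246, 2349 and 2439 in non-pregnant islets (-0.21 ± 0.07). In its dimmer probe set (-0.11 ± 0.09) the groups overlapped, with 776 to 803 in pregnant and 795 to 899 in non-pregnant islets. The 2 probe sets of this gene therefore had the same sign but did not both separate the groups.

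Cldn3, a sealing claudin and, with Cldn4, a receptor of the Clostridium perfringens enterotoxin, had no difference in its brightest probe set. That probe set read 1486, 1495 and 1631 in pregnant islets, against 1754, 1456 and 1489 in non-pregnant islets (-0.02 ± 0.09). Its other 3 probe sets had -0.21 ± 0.10, -0.22 ± 0.09 and -0.25 ± 0.12, and in 2 of them every pregnant array was lower. The mean of the 4 probe sets had -0.17 ± 0.08, so the size for Cldn3 depends on which probe set stands for the gene. An _x_at probe set, of which Cldn3 has 2, holds probes that also match other transcripts.

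The remaining members were dim. Cldn2, which forms a pore for cations and water, read 112, 126 and 136 in pregnant islets, against 70.4, 109 and 183 in non-pregnant islets (0.12 ± 0.29). The sign depended on single arrays, since the difference was -0.16 without non-pregnant replicate 1 and 0.44 without non-pregnant replicate 3. The pregnant arrays lay inside the range of the non-pregnant ones, and its second probe set, with signals of 13.4 to 61.9, was below the filter on dim probe sets. Cldn5, the main claudin of endothelial cells, read 122, 79.3 and 119 in pregnant islets, against 112, 113 and 28.8 in non-pregnant islets. The groups overlapped, and the difference of 0.42 ± 0.39 rested on non-pregnant replicate 3, without which it was -0.08. Among 12 endothelial markers tested, 0 passed as higher and 1 as lower, against 6.1% and 5.79% of all genes tested. Their summed signal was 9675 to 10792 in pregnant and 10947 to 11647 in non-pregnant islets, with none at 0.

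Cldn1, a barrier claudin needed in skin, and Cldn10, which forms ion-selective pores, did not pass the filter, which ranks probe sets by brightness and is no test of detection. The brightest probe set of each read above the highest TrpnX control on all 6 arrays. Cldn10 read 33.7, 49.0 and 55.1 in pregnant islets, against 39.5, 33.1 and 79.1 in non-pregnant islets, and the groups overlapped (-0.06). The 4 probe sets of Cldn1 disagreed. In 1 of them the signal averaged 64.2 ± 4.66 in pregnant and 26.9 ± 3.60 in non-pregnant islets (SD, n = 3 each), up to 69.2 and 30.9, without overlap (0.90). All non-pregnant signals of that probe set lay within the range of the TrpnX controls. The brightest of the 4 had 34.6, 61.6 and 39.7 in pregnant islets, against 70.0, 41.4 and 42.0 in non-pregnant islets (-0.13), and the other 2 had signals under 30 on every array. The filter kept the top 60% of probe sets by mean log2 value, which corresponds to a signal of about 50.5. Of the member probe sets, the lowest kept was that of Cldn5 (mean log2 value 6.71) and the highest left out that of Cldn1 (5.98), against a limit of 6.06.

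**Figure D2:**
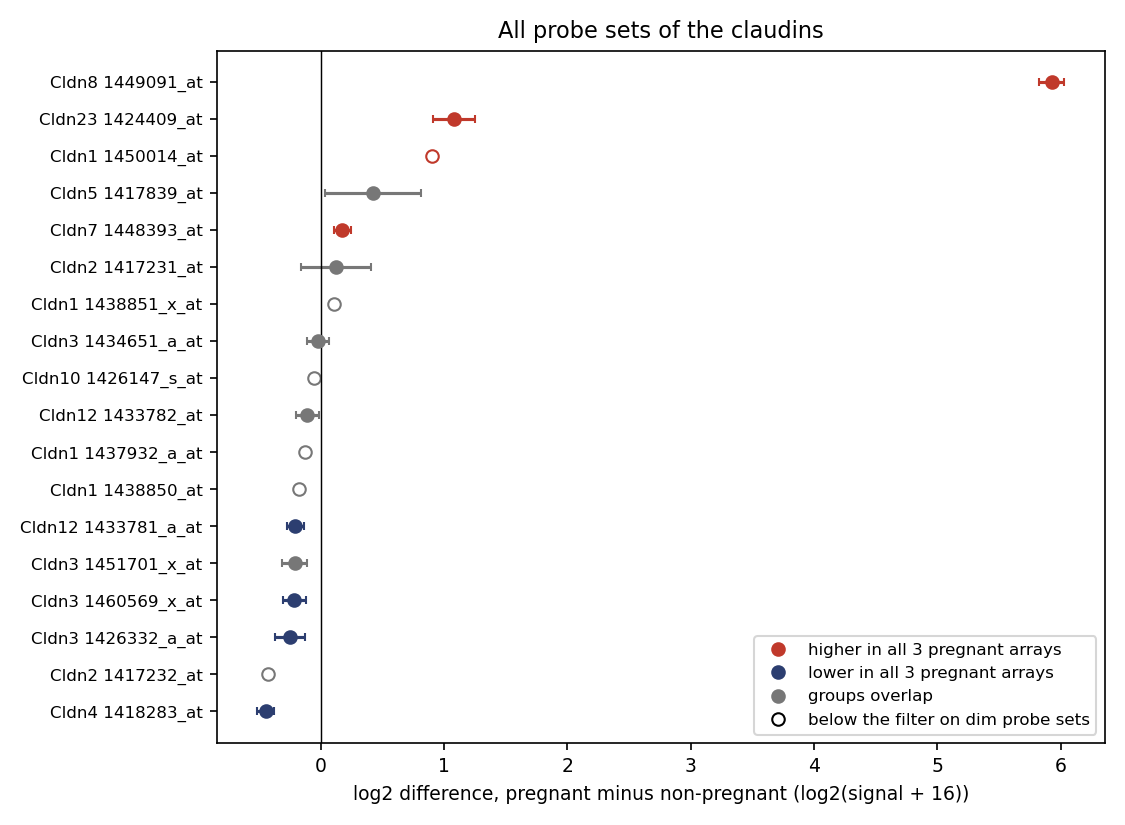
Log2 difference, pregnant minus non-pregnant, of all 18 claudin probe sets on the log2(signal + 16) scale; bars are limma's SE for the 12 probe sets above the filter and open circles are probe sets below it. Cldn8 stands at 5.93, and the next, Cldn23, at 1.08; red and blue mark groups that do not overlap.

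Of the 18 probe sets, 12 in 8 genes passed the filter. In 3 of these 12 every pregnant array was higher (Cldn8, Cldn23 and Cldn7), in 4 every pregnant array was lower (Cldn4, Cldn12 and 2 of Cldn3), and in 5 the groups overlapped. Over all tested probe sets, 11.6% were higher without overlap and 16.1% lower. Since the members were picked with this contrast known, nothing is read from their share. The 14 numbered claudins outside the group were dim, with no signal above 310 on any array. They were not shown to be absent, and 9 of their 17 probe sets passed the filter. Groups did not overlap in 4 of these 9, all lower in pregnancy: Cldn9 (-0.63 ± 0.20), Cldn6 (-0.35 ± 0.16), Cldn34c1 (-0.39 ± 0.20) and Cldn11. Cldn11 read 60.3, 55.8 and 36.0 in pregnant islets, against 99.3, 92.1 and 91.2 in non-pregnant islets. Its probe set passed the filter only through the non-pregnant arrays, so no fitted difference is given. The same holds for the dimmer tested probe set of Cldn9. In that probe set and in the dimmer one of Cldn34c1 (-0.17 ± 0.28) the groups overlapped. The largest positive difference of the 14 was that of Cldn19, a claudin of the kidney's thick ascending limb, but its groups overlapped. The means of Cldn19 were 78.3 ± 27.6 in pregnant and 57.4 ± 38.1 in non-pregnant islets (SD, n = 3 each). Its probe set passed the filter only through the pregnant arrays, so no fitted difference is given. The lowest non-pregnant signal of Cldn19 lay within the range of the TrpnX controls.

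Promoters were found in the RefSeq table (GRCm38.p6) for 8 of the 10 members, with 12 windows of 250 bases before a start site. Windows of Cldn4 and Cldn7 are shown because these are bright claudins whose groups separated in opposite directions. For Cldn7 the window shown is that of the downstream start, the only one of its starts with a motif match. The motifs searched, on both strands, were TTCNNNGAA, the element bound by STAT5, GGGCGG, the GC box, and TATAAA, the TATA box. Capitals mark matches, and the sequences read 5′ to 3′ toward the start site.
Cldn4 promoter: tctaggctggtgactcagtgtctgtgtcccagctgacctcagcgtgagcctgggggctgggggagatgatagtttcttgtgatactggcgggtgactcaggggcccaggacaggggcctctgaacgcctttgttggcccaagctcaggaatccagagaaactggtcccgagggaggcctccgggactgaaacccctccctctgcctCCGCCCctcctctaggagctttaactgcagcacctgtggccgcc
Cldn7 promoter: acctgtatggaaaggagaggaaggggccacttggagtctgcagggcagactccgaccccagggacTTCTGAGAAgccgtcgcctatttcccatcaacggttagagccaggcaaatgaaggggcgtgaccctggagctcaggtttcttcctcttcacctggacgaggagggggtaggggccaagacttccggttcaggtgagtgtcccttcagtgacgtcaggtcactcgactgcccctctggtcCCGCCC
The Cldn4 window lies at chr5:134946935-134947184 on the minus strand and holds 1 GC box, which begins 44 bases before the start. The Cldn7 window lies at chr11:69965171-69965420 on the plus strand and holds 1 TTCNNNGAA match that begins 185 bases before the start and 1 GC box that ends next to it. The upstream start of Cldn7 held none of the 3 motifs. A TTCNNNGAA match was also present for Cldn12, which was lower in pregnant islets. It lay in 2 of its 3 windows, at 29 and 89 bases before the start. These 2 windows overlap, and both hold the same run of letters, seen from 2 start sites. No TTCNNNGAA match was found in the windows of the other members in the table. Of 32851 windows in the table, 7.02% hold TTCNNNGAA, 32.7% GGGCGG and 12.4% TATAAA, so such matches are common, and a match is only a run of letters.

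The partners of claudins were taken from 4 lists of 66 junction genes, written with earlier results of these data known. Of 63 genes tested, 3 rose and 5 fell at a Benjamini-Hochberg adjusted p of 0.05 in limma. Over all 12914 genes tested, 6.1% rose and 5.79% fell, so 3 and 5 of 63 are near the background. Their median log2 difference was -0.09, against -0.04 over all genes.

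Membrane and scaffold proteins of the tight junction had 1 rise and 3 falls among 24 genes, with a median of -0.12. Cxadr, an immunoglobulin-like adhesion protein and virus receptor, read 381, 406 and 373 in pregnant islets, against 569, 592 and 609 in non-pregnant islets. The groups did not overlap, and it fell by 0.59 ± 0.11 (limma adjusted p = 0.0045). This held in 1 of its 4 tested probe sets, and their mean did not pass (adjusted p = 0.19).

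Jam2, another immunoglobulin-like junction protein, had means of 336 ± 53.8 in pregnant and 524 ± 83.7 in non-pregnant islets (SD, n = 3 each) and fell by 0.62 ± 0.16 (limma adjusted p = 0.027), in 3 of 3 probe sets. Cgn, the plaque protein cingulin, had means of 596 ± 37.8 in pregnant and 840.0 ± 93.9 in non-pregnant islets and fell by 0.48 ± 0.11 (limma adjusted p = 0.016). Ybx3, a Y-box protein that binds ZO-1, rose by 0.24 ± 0.06 (limma adjusted p = 0.030), in 1 of 2 probe sets, with means of 3959 ± 129 in pregnant and 3339 ± 145 in non-pregnant islets. Leaving out single arrays ended the calls of Jam2 (adjusted p up to 0.11, without pregnant replicate 1), Cgn (up to 0.063, without non-pregnant replicate 3) and Ybx3 (up to 0.11, without pregnant replicate 3).

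The best known partners of claudins did not pass. Ocln, occludin, read 461, 422 and 544 in pregnant islets, against 561, 572 and 571 in non-pregnant islets. All pregnant arrays were lower, at -0.26 ± 0.12 (limma adjusted p = 0.22). Tjp1, which encodes ZO-1, had -0.19 ± 0.07 (adjusted p = 0.13), Tjp3, which encodes ZO-3, -0.19 ± 0.22 (adjusted p = 0.67), and the adhesion protein F11r, JAM-A, -0.09 ± 0.11 (adjusted p = 0.70). The value for Tjp3 depended on single arrays, at -0.0049 without pregnant replicate 3 and -0.41 without pregnant replicate 2. A p above the threshold does not show that these genes were unchanged.

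**Figure D3:**
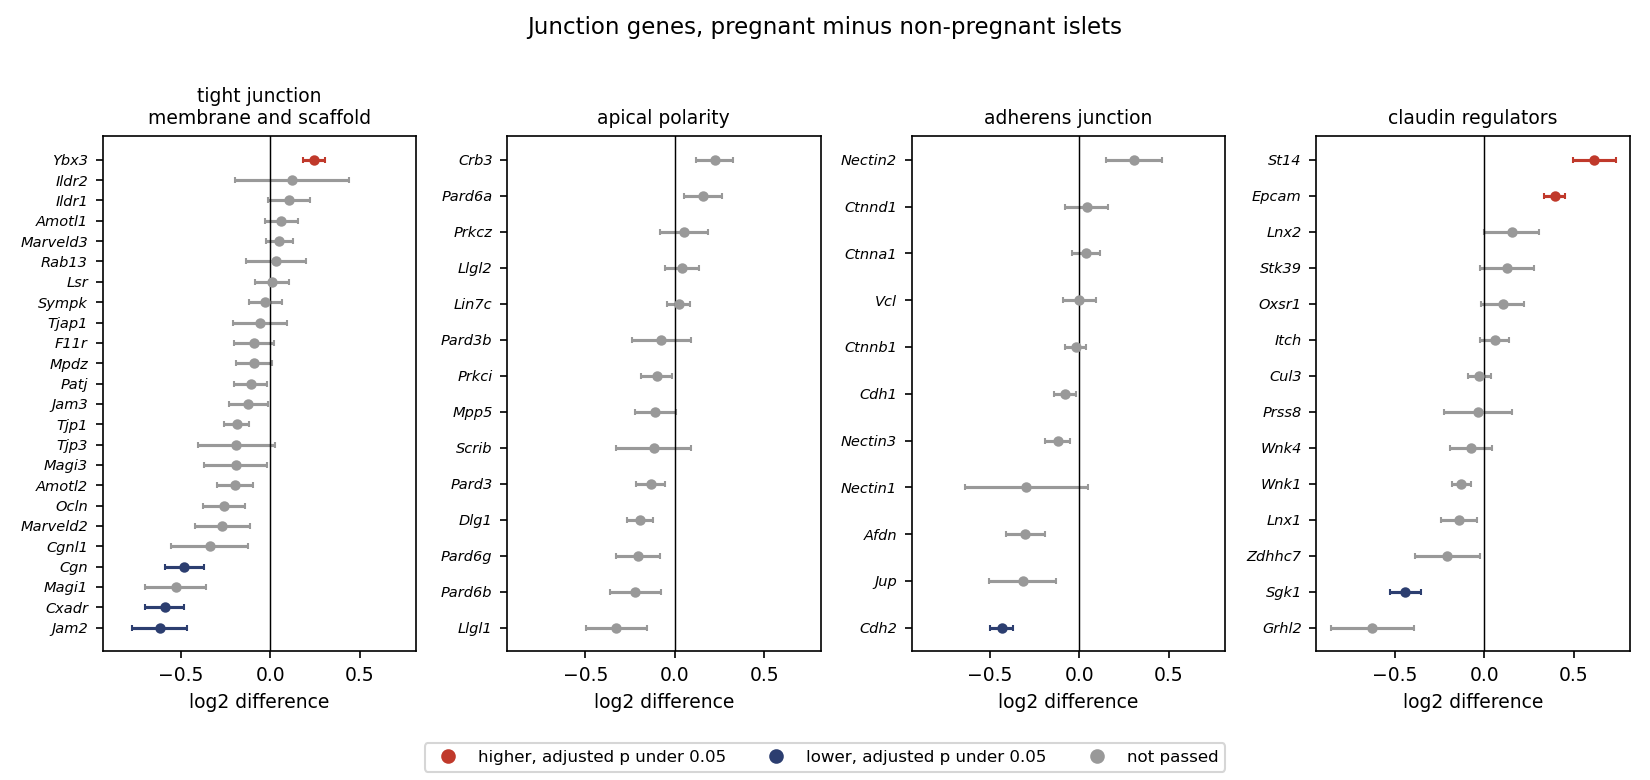
Log2 differences (pregnant minus non-pregnant) with limma's SE for the 63 tested junction genes in 4 lists; red and blue points passed an adjusted p of 0.05 and grey points did not. St14 at 0.62 and Epcam at 0.39 are the highest of those that passed, and Jam2 at -0.62 and Cxadr at -0.59 the lowest.

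Among 14 genes that act on claudins, 2 rose and 1 fell. Epcam, an adhesion protein that binds Cldn7 and protects it from degradation, read 6796, 6861 and 6433 in pregnant islets, against 4996, 5004 and 5275 in non-pregnant islets. The groups did not overlap, and it rose by 0.39 ± 0.06 (limma adjusted p = 0.0011), in 1 of 2 probe sets. St14, the membrane protease matriptase, rose by 0.62 ± 0.12 (adjusted p = 0.0061), with means of 651 ± 63.7 in pregnant and 418 ± 35.6 in non-pregnant islets.

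The hormone-induced kinase Sgk1 fell by 0.44 ± 0.09 (limma adjusted p = 0.0074), with means of 2282 ± 28.0 in pregnant and 3119 ± 410.2 in non-pregnant islets. Wnk4 and Lnx1, a kinase and a ubiquitin ligase reported to act on claudins, had -0.07 ± 0.12 and -0.14 ± 0.10 and did not pass (adjusted p = 0.78 and 0.47). In the adherens junction list 1 of 11 genes passed: Cdh2, N-cadherin, read 4278, 4141 and 4128 in pregnant islets, against 5309.5, 6019.9 and 5671.5 in non-pregnant islets. It fell by 0.44 ± 0.06 (limma adjusted p = 0.0011), in 2 of 2 probe sets, whereas Cdh1, E-cadherin, had -0.08 ± 0.06 (adjusted p = 0.49). Of 14 polarity genes 0 passed in limma, and 1, Dlg1, had an unadjusted p under 0.05. Of the 8 junction genes that passed, Cxadr alone did so without the variance trend (adjusted p = 0.031; 0.055 to 0.18 for the others), and Cdh2 alone with the acinar marker level as a covariate (adjusted p = 0.019; 0.096 to 0.83 for the others). With that covariate the differences were 0.39 for Epcam, 0.64 for St14, 0.35 for Ybx3, -0.57 for Cdh2, -0.58 for Cgn and -0.61 for Cxadr, while Jam2 had -0.15 and Sgk1 -0.25.

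Cells other than endocrine cells can carry claudins, and fewer cells of a type cannot be told apart from less RNA per cell in such bulk samples. The beta cell marker Ins2 averaged 20510.2 in pregnant and 18776 in non-pregnant islets. The acinar gene Cela1 was also bright, at means of 17102 and 36715, so such signals do not tell islet from acinar tissue. Of 9 beta cell markers tested 0 rose and 2 fell. Over all genes tested 6.1% rose and 5.79% fell, which is the background for the marker counts in this paragraph. Acinar markers moved with the groups, since 17 of 18 fell, with a median of -1.21 and a summed signal of 123905 to 202662 in pregnant and 213094 to 404041 in non-pregnant islets. Of 7 duct markers tested 1 rose and 1 fell, and the summed signal of the 10 on the array was 19048 to 19936 in pregnant and 17059.6 to 18076 in non-pregnant islets. The keratin gene Krt18, which rose by 0.33 ± 0.05 (limma adjusted p = 0.0024), made up most of that sum, with means of 13291 ± 585 in pregnant and 10595 ± 215 in non-pregnant islets. Krt7, another keratin gene, fell by 0.27 ± 0.06 (limma adjusted p = 0.016). The dim keratin gene Krt19 averaged 75.1 ± 24.5 in pregnant and 38.4 ± 25.8 in non-pregnant islets. Its groups overlapped, and it was not among the calls. Its probe set passed the filter only through the pregnant arrays, so no fitted difference or test is given. Its lowest non-pregnant signal, 13.3, lay within the range of the TrpnX controls. The other duct markers tested, Ehf (0.11), Elf3 (0.15), Sox9 (-0.12) and Pkhd1 (-0.24), did not pass. The mucin gene Muc1, below the filter, averaged 13.6 ± 8.43 in pregnant and 77.9 ± 29.2 in non-pregnant islets (SD, n = 3 each). None of the acinar or duct markers was at 0, which is no test of detection. The lowest duct signal, 1.5, lay within the range of the TrpnX controls. Stellate cell and fibroblast markers also moved with the groups, with 0 rises and 3 falls among 11, a median of -0.58 and a summed signal of 5034 to 6676 in pregnant and 8758 to 8989 in non-pregnant islets, with none at 0. There were 0 rises and 2 falls among 8 markers of other islet endocrine cells and 0 of either among 6 immune markers. With the acinar median of each array as a covariate, the difference was 5.69 for Cldn8, 0.66 for Cldn23, 0.18 for Cldn7, -0.48 for Cldn4 and -0.18 for Cldn12. The other members then had 0.16 for Cldn3, 0.27 for Cldn2, -0.20 for Cldn5, 0.15 for Cldn1 and 0.62 for Cldn10. The values of Cldn8, Cldn23, Cldn3 and Cldn10 moved by more than the spread between arrays. The acinar median itself did not overlap between the groups, at -0.91 to -0.23 in pregnant and -0.12 to 0.98 in non-pregnant islets, so acinar content and pregnancy cannot be fully told apart. The part of stellate cells and other cell types in the differences of the claudins was not tested.

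The 5 genes whose profiles over the 6 arrays were closest to Cldn8, by Euclidean distance of centred log2 values, were Tph1 (0.89), Sftpd (1.12), Tph2 (2.53), Gbp8 (2.67) and Fmo1 (2.99). Tph1 and Tph2 are the hydroxylases that begin serotonin synthesis, Sftpd is a secreted lectin, Gbp8 a guanylate-binding protein and Fmo1 a monooxygenase. With groups this far apart the distance mostly reflects the size of the difference, which was 6.17 for Tph1 and 5.08 for Sftpd. The non-pregnant signals of Tph1 were dim, at 28.6 to 80.8, and the lowest lay within the range of the TrpnX controls. The probe set of Tph1 passed the filter only through the pregnant arrays. Within the pregnant group the relative spread was 5.98% for Cldn8, 6.57% for Tph1 and 20.0% for Sftpd.

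**Figure D4:**
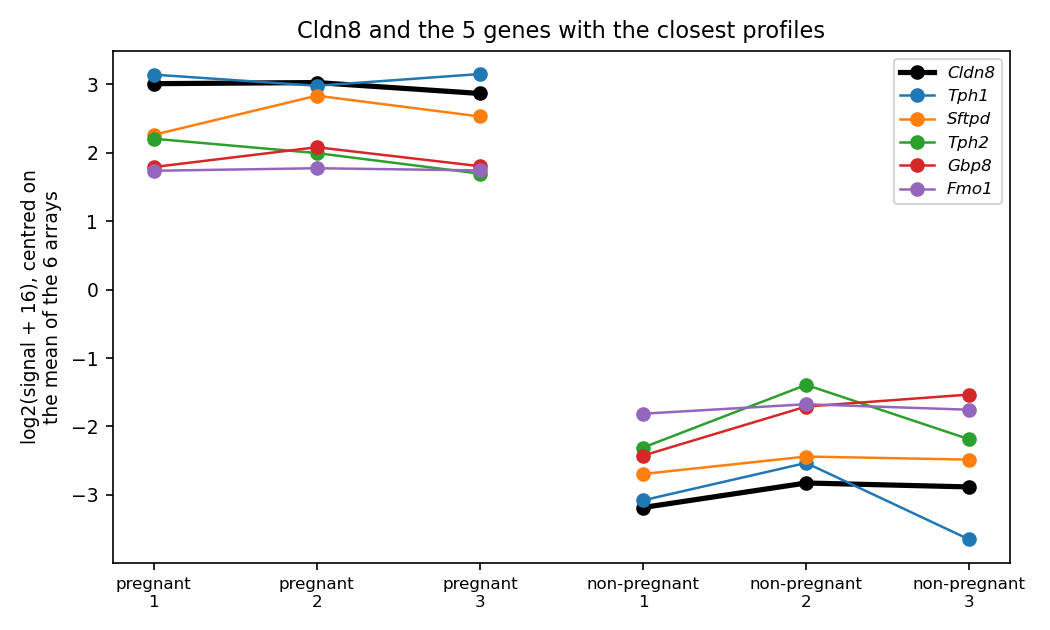
Centred log2(signal + 16) of Cldn8 (black) and the 5 genes with the smallest Euclidean distance to it, on each of the 3 pregnant and 3 non-pregnant arrays; lines join arrays of a group and carry no order. Tph1, at a distance of 0.89, runs closest to Cldn8.

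Cldn8 lies on chromosome 16 (GRCm38.p6) beside a cluster of hair keratin-associated protein genes. Of the 5 genes on each side that are on the array, 3 were bright enough to be tested. Krtap13-1, which encodes a protein of the hair shaft and is 4 array genes from Cldn8, read 181, 126 and 129 in pregnant islets, against 38.1, 3.8 and 10.1 in non-pregnant islets. It was higher on all pregnant arrays. The probe set passed the filter only through those arrays, and 2 of the 3 non-pregnant signals lay within the range of the TrpnX controls, so no fitted difference or test is given. Bach1, a heme-binding transcription repressor on the other side, read 1471.5, 1486 and 1466.5 in pregnant islets, against 1769, 1769.8 and 1794 in non-pregnant islets. It fell by 0.27 ± 0.07 (limma adjusted p = 0.032), a call that ended with any 1 array left out (adjusted p up to 0.10, without pregnant replicate 1). Krtap26-1 had overlapping groups and was not called, and its probe set passed the filter only through the non-pregnant arrays. The 7 genes that were not tested, Grik1 among them, had overlapping groups and signals of 1.2 to 63.6.

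**Figure D5:**
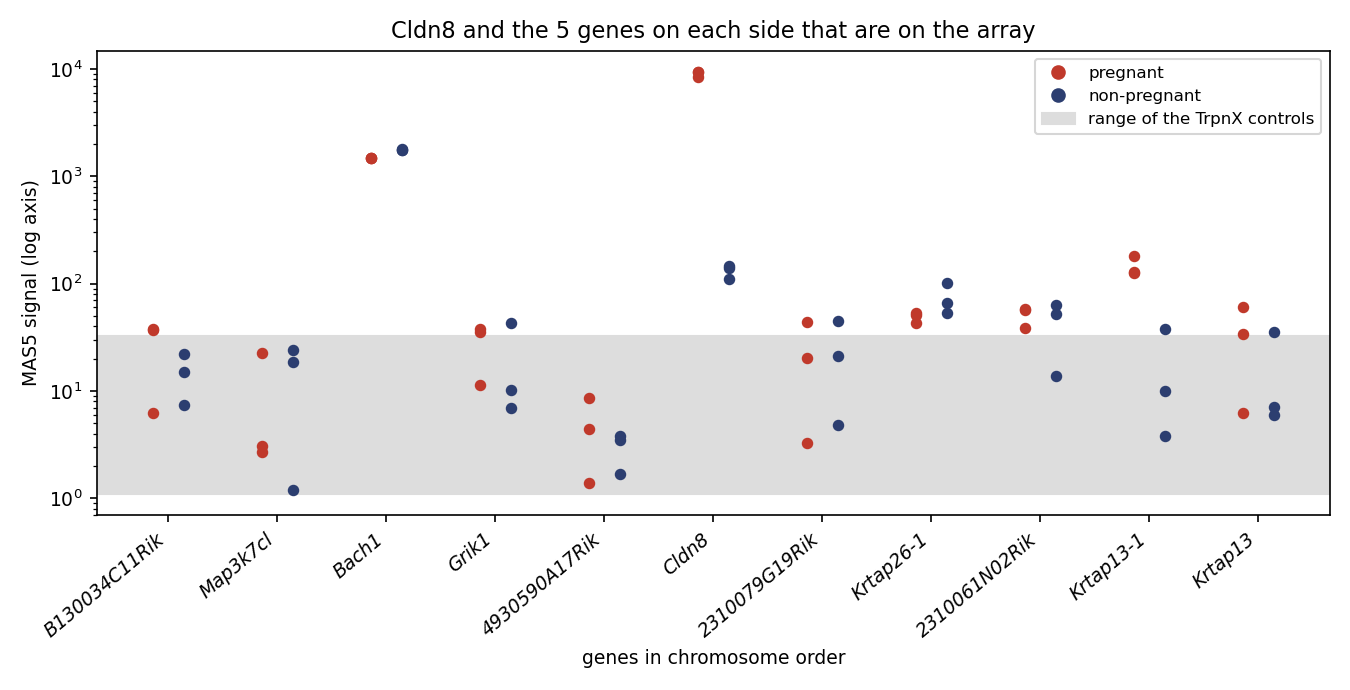
MAS5 signal (log axis) of Cldn8 and the 5 genes on each side of it on the array, in chromosome order, for the 3 pregnant (red) and 3 non-pregnant (blue) arrays; the grey band is the range of the TrpnX controls, 1.1 to 32.3. Besides Cldn8, Krtap13-1 shows pregnant arrays above the non-pregnant ones, at 126 to 181 against 3.8 to 38.1.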

How the data were processed

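The authors deposited 1 intensity per probe set and array, a linear-scale signal from MAS5 per the submitters' processing notes, whose settings the notes here leave out. Trimmed means (2%) of 500.003 on all arrays and medians of 86.1 to 100.3 needed no further scaling. Of 45101 probe sets, 64 controls were dropped; the platform annotation named 34958 with 1 symbol. The number of arrays limits the precision.

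A pseudocount of 16 was added before log2, which understates changes of dim genes. The brightest 60% of probe sets by mean log2 (27022) entered limma 3.58.1 (R 4.3.3; eBayes with a variance trend, 2-sided, Benjamini-Hochberg adjustment), tested on simulated data. The brightest probe set stood for a gene. Named genes were all 10 claudins, up to 4 called genes per junction list, set junction genes (1 of them is not reported here), array neighbours of Cldn8 and the 5 closest profiles; Wnk4, Lnx1, Grik1 and the other claudins were picked after their values were seen. Members and lists were chosen with earlier results of these data known. Same-numbered arrays did not deviate together (correlations -0.07 to 0.03), so no pairing was used. Alternatives were pseudocounts of 1 and 64, quantile normalization, median centring, other filters and variance models, a replicate block, single arrays left out, an acinar covariate and averaged probe sets. Figures used matplotlib 3.10.9 in Python 3.11.15.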

Additional observations from a re-analysis of the deposited data

How the results depend on the processing

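The difference of Cldn8 was 6.08 with a pseudocount of 1, 5.53 with a pseudocount of 64 and 5.69 with the acinar covariate; in the other 12 of 15 settings it moved by less than the spread between arrays, and it was 5.82 to 5.997 with any 1 array left out. For the other claudins 127 of 133 values did so too. The filters and the replicate block cannot change a difference, nor can averaging where 1 probe set was tested, so those values were fixed in advance. A wide spread also lets a sign change count as a small move. Cldn5 had -0.20 with the acinar covariate, and Cldn2 had -0.16 without non-pregnant replicate 1. Of the junction genes, 0 rose and 1 fell without the variance trend, 0 rose and 1 fell with the acinar covariate, and 3 fell with median centring; with any 1 array left out 2 to 3 rose and 3 to 5 fell. Cdh1 had 0.027 with the acinar covariate, and F11r 0.084 with it and -0.18 to 0.0010 with any 1 array left out, the positive value without non-pregnant replicate 3. Over all probe sets 2587 passed, against 603 without the trend, 516 with the covariate and 1482 to 2259 with any 1 array left out; the cause was not tested. With median centring 71.0% of calls were higher, against 50.02%. With the replicate block 2356 passed, Bach1 lost its call (adjusted p = 0.059), and the junction genes kept their counts of 3 and 5. With any 1 array left out Cldn10 had -0.25 to 0.23, Cldn1 -0.31 to 0.062 and Cldn3 -0.073 to 0.060. The brightest signals of Cldn1 and Cldn10 lay near those of the TrpnX controls, up to 32.3, which limits what can be seen of both genes. The settings for Bach1 were tried after its values were seen.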
